A study of Rattus norvegicus with 8 samples.

Results

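The chemokine ligands and receptors of the rat sciatic nerve were read from the gene names of a count table. The ids taken began with Ccl, Cxcl, Ccr, Cxcr or Ackr and a digit, or were Cx3cl1, Cx3cr1, Xcl1, Xcr1, Pf4, Ppbp or Ccrl2. Of 22601 gene names 59 met this rule, 36 of them ligands and 23 receptors, the latter made up of 18 conventional and 5 atypical ones (Ackr1 to Ackr4 and Ccrl2). PolyA RNA had been sequenced from the sciatic nerve on day 15 after either a chronic constriction injury (CCI, a model of neuropathic pain in which ligatures are tied loosely around the nerve) or a sham operation. There were 4 libraries per group, called CCI 1 to 4 and sham 1 to 4, and CCI was compared with sham throughout. The sources used here give no strain, age or sex, and no genetic change or drug is named for either group. Nothing in the labels ties libraries to single animals, so p-values reflect the spread among 4 libraries per group, which may be partly technical.

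Chemokines are small secreted proteins that bind G protein-coupled receptors on leukocytes and draw them along a gradient, and the subfamilies (CC, CXC, XC and CX3C) are named for the spacing of their first cysteines. Most inflammatory ligands share receptors, while a few homeostatic pairs, such as Cxcl12 with Cxcr4, have far narrower use. Atypical receptors bind chemokines without G protein signalling and scavenge or transport them. After injury of a peripheral nerve, Schwann cells, resident macrophages and fibroblasts are known sources of chemokines that bring in neutrophils, then monocytes and lymphocytes.

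The libraries held between 42541217 and 54559292 counts. Levels are given as CPM, counts divided by the library total after TMM scaling (the trimmed mean of M-values, which corrects for library makeup). A library with a count of 0 could still hold up to 3 counts by counting error alone, which came to between 0.0518 and 0.0771 CPM. Myelinating Schwann cell genes, which mark nerve, were abundant in sham, where the 8 list members summed to between 89025 and 105183 CPM, against 6663 to 10235 CPM in CCI. All 8 fell, against 32.2% of all genes tested. Skeletal muscle genes stood apart in CCI 2 (5950 CPM, against 17.6 to 1170 in the other CCI libraries) and in sham 2 (1100 CPM, against 36.1 to 70.4), and results that turn on these libraries are given without them. The macrophage and monocyte list summed to between 2709 and 3094 CPM in CCI and between 679 and 1042 CPM in sham. Of its 14 members 13 rose, against 36.2% of all genes tested, led by Adgre1 (16.9 ± 2.01 to 119 ± 7.78 CPM, SD, n = 4 per group). In such whole-tissue RNA, a change in the number of cells of a type and a change in RNA per cell cannot be told apart, and the part of cell numbers in the chemokine results was not tested.

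Most chemokine ligands and conventional receptors were higher in the injured nerve, and no atypical receptor was, except Ccrl2 under library totals or on the FPKM scale. Of the 51 members that passed the filter on low counts and were tested, 40 were called higher in CCI, 5 lower and 6 neither, at an adjusted p under 0.05 in edgeR's quasi-likelihood test. Over all 15763 genes tested, 68.4% were called, 36.2% higher and 32.2% lower, so a call alone says little about a gene here, and the direction and size carry the difference. Scaled by library totals only, 7433 genes were higher and 3682 lower, against 5708 and 5080 with TMM. The median log2 fold change (CCI against sham) was 3.01 over the members and 0.05 over all genes. Changes of at least 2-fold upward were seen in 39 members, against 16.4% of all genes, and of at least 8-fold in 26 members, against 4.04%. In 39 members every CCI library lay above every sham library, which was so for 34.2% of all genes, and in 3 members (Ackr1, Ackr2 and Ccl27) every CCI library lay below, against 30.6%.

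A gene that is silent in sham can pass the filter only through CCI, and 20 of the 51 tested members did not clear the filter of about 0.217 CPM in all sham libraries. The 31 members over it in every library comprised 21 higher, 5 lower and 5 not called, with a median log2 fold change of 1.70. For the 14159 genes of that kind 69.8% were called, 36.2% higher and 33.6% lower, and the median was 0.03. Of those 31 members 20 were at least 2-fold higher, against 14.1% of these genes, and 7 at least 8-fold, against 2.12%. By role, 27 of 31 tested ligands were higher and 1 was lower (median 3.08), and 13 of 20 tested receptors were higher and 4 lower (median 2.88). Among those over the filter in every library, 15 of 18 ligands were higher and 1 lower (median 1.77), and 6 of 13 receptors were higher and 4 lower (median 0.42). The conventional receptors were 13 higher and 1 lower of 15, while the 5 atypical receptors were 3 lower and 2 not called (median -0.37). Of the 15 conventional receptors 7 were not over the filter in all sham libraries, against 0 of the 5 atypical ones. The conventional set was thus chosen in part by its level in CCI, and the atypical set was not.

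**Figure D1:**
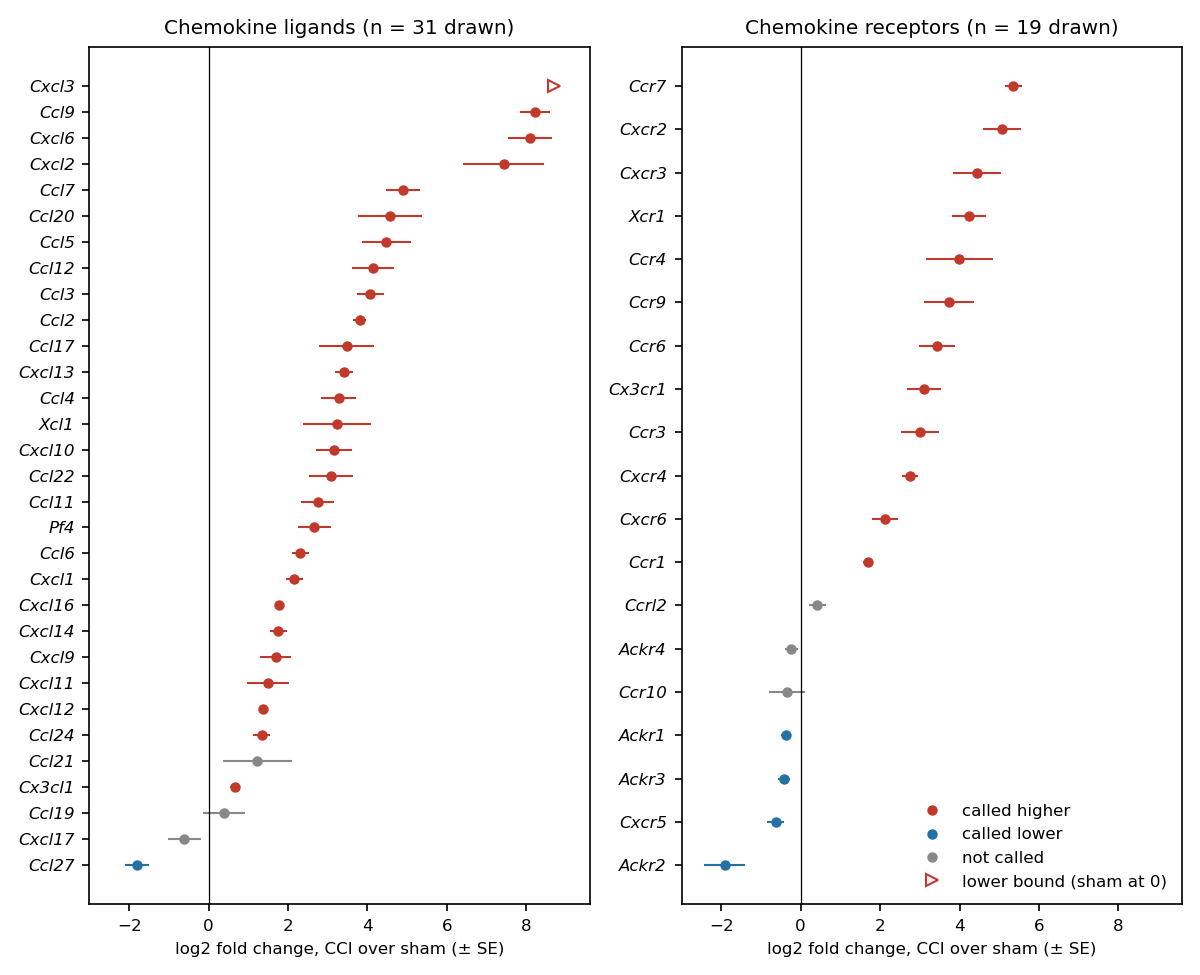
Log2 fold change (CCI against sham, edgeR) of the tested chemokine ligands and receptors reported by name, with its standard error, ordered by size, with the call shown by the marker and Cxcl3 drawn as an open triangle at its lower bound because it had no sham counts. Most points are called higher, while the atypical receptors lie below 0 except Ccrl2 (0.42, not called).

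The ligands of Cxcr2, the receptor that draws neutrophils, showed some of the widest differences. Cxcl6, a neutrophil attractant also called Cxcl5 in the rat annotation, measured 65.9, 33.9, 22.5 and 29.3 CPM in CCI 1 to 4 and 0.206, 0.0706, 0.0465 and 0.221 CPM in sham 1 to 4. It went from a very low level to a clear signal in every CCI library, highest in CCI 1, and rose by 8.10 on the log2 scale (SE 0.55, adjusted p 3.73e-06). Cxcl1, a neutrophil attractant of the same subgroup that was already present in sham, measured 7.58, 8.12, 4.76 and 6.08 CPM in CCI and 1.26, 1.37, 1.86 and 1.46 CPM in sham. Its groups did not overlap, and the rise was 2.16 (SE 0.22, adjusted p 7.01e-06).

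Cxcl2, the close relative of Cxcl1 made by macrophages and other cells, measured 5.23, 5.60, 3.35 and 24.1 CPM in CCI, where CCI 4 stood far above the rest, and 0, 0.0471, 0.0232 and 0.132 CPM in sham. The summed counts, 1903 against 9, gave a ratio of 175 (95% counting interval 92.0 to 383, which covers counting error only). The log2 fold change of Cxcl2 was 7.43 (SE 1.02, adjusted p 0.000266). It was 6.40 without CCI 4 and 8.48 without sham 4, and limma-voom with sample weights gave an adjusted p of 0.0742 (adjusted p over 19 alternatives from 1.06e-12 to 0.0742). Cxcl3, the remaining member of that subgroup, had no count in any sham library and 6.53, 5.98, 7.04 and 10.2 CPM in CCI. Against 3 counts over the whole sham group it was at least 416-fold higher (adjusted p 4.82e-07). Cxcl1, Cxcl2 and Cxcl3 are similar in sequence and lie close together, so the reads could have been divided between them in counting, and each single value is uncertain for that reason.

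Cxcr2 itself measured 32.1, 15.6, 11.5 and 11.1 CPM in CCI and 0.591, 0.283, 0.790 and 0.419 CPM in sham. CCI 1 held the highest level, as it did for Cxcl6, and the receptor rose by 5.07 on the log2 scale (SE 0.48, adjusted p 1.52e-05). Cxcr1, its neighbour in the genome and a second receptor for such ligands, did not pass the filter, with 53 counts in CCI and 0 in sham, at least 14.6-fold higher against 3 counts over the sham group. The neutrophil list, which shares no gene with the chemokines, summed to 193, 126, 75.7 and 98.9 CPM in CCI 1 to 4 and to between 2.54 and 6.40 CPM in sham. Of its 9 tested genes 6 rose, against 36.2% of all genes, led by the ficolin Fcnb (0.259 ± 0.127 to 16.9 ± 4.71 CPM), but 8 of the 9 were not over the filter in all sham libraries and were tested because of their level in CCI. Np4 had no count in sham, and Elane of this list is also among the proteases described last. Like Cxcr2 and Cxcl6, this sum was highest in CCI 1, and its part in their levels was not tested.

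The promoters of Cxcl1 and Cxcl6 are shown because both windows hold the same letters. Promoter windows in the RefSeq table (rat assembly GRCr8) ran from 250 bases before to 50 after the start of the gene, and 44 of the 59 members had an entry. The window was searched on both strands for GGGANNTTCC, a core of the sites bound by NF-κB, the factor best known for switching on inflammatory chemokines. It occurred in 6 of 44 member promoters (13.6%) and in 355 of all 27457 promoters (1.29%), and the 6 were Cxcl1, Cxcl6, Cxcl10, Cxcl11, Ccl7 and Ccr3. In Cxcl1 (chr14:17479272-17479571, minus strand) the matching run GGGAATTTCCC began 84 bases before the start, and in Cxcl6 (chr14:17596368-17596667, minus strand) the identical run began 88 bases before it. Capitals mark the matching letters, and a match describes the sequence and not use of the site.
Cxcl1: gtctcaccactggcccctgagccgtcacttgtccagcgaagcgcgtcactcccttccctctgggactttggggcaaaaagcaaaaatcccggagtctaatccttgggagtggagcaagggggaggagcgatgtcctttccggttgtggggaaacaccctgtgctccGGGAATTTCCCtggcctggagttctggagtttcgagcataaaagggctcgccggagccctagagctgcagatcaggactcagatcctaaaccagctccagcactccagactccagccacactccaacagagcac
Cxcl6: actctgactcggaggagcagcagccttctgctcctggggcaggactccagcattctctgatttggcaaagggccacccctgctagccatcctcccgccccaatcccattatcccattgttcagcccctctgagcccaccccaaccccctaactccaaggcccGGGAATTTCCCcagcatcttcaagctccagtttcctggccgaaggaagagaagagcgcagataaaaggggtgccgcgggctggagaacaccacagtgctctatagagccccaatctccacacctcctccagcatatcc

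The monocyte attractants Ccl2, Ccl7 and Ccl12, which share the receptor Ccr2, all rose. Ccl2, the ligand best known for recruiting monocytes to injured nerve, measured 72.5, 57.1, 55.3 and 45.5 CPM in CCI and 3.37, 4.61, 4.37 and 4.10 CPM in sham, a rise of 3.81 (SE 0.16, adjusted p 1.98e-08). Ccl7, which also binds Ccr1 and Ccr3, measured 33.3, 23.0, 18.5 and 15.4 CPM in CCI and 0.385, 0.541, 0.651 and 1.41 CPM in sham, a rise of 4.90 (SE 0.42, adjusted p 9.12e-06). Both genes took the same order over the CCI libraries, highest in CCI 1 and lowest in CCI 4, and neither group overlapped with sham. Ccl12, described mainly in rodents, measured 3.23, 3.05, 3.95 and 1.03 CPM in CCI and 0.0514, 0.118, 0.256 and 0.198 CPM in sham, and rose by 4.14 (SE 0.54, adjusted p 4.76e-05). The 3 genes form a run with Ccl11 and Ccl1 in the GRCr8 gene order (Ccl2, Ccl7, Ccl11, Ccl12, Ccl1), and Ccl1 had 4 counts in CCI, 0 in sham and was not tested. Ccr2 is not analysed here.

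In Ccl7 (chr10:67513845-67514144, plus strand) the NF-κB letters, read here from the other strand as GGAAGATCCC, began 59 bases before the start. Its promoter is shown as the CC ligand with these letters.
Ccl7: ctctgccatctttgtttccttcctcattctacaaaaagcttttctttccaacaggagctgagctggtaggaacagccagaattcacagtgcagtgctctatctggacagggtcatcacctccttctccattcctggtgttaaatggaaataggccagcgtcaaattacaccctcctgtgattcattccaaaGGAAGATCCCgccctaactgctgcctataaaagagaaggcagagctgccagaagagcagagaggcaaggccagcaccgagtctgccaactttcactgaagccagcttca

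The ligands of Ccr1, a receptor of macrophages, and the neighbouring Ccl4 rose from widely different starting levels. Ccl6, a ligand of Ccr1 known in rodents, was already present in sham at 17.5, 14.3, 19.8 and 31.4 CPM and measured 114, 102, 93.2 and 105 CPM in CCI, a rise of 2.31 (SE 0.22, adjusted p 2.02e-05). Its neighbour Ccl9, a second rodent ligand of Ccr1, measured 38.2, 37.6, 68.4 and 35.3 CPM in CCI and 0.231, 0.188, 0.0465 and 0.132 CPM in sham. Ccl9 thus had the larger change, 8.22 on the log2 scale (SE 0.38, adjusted p 1.46e-07), from a low level, and CCI 3 stood above the other CCI libraries. Ccl3, an inflammatory ligand of Ccr1, measured 5.52, 4.90, 5.74 and 5.01 CPM in CCI and 0.308, 0.118, 0.441 and 0.375 CPM in sham, and it rose by 4.08 (SE 0.33, adjusted p 1.26e-06). Ccl4, an inflammatory CC ligand next to Ccl3 in the genome, measured 2.18, 1.97, 2.43 and 1.57 CPM in CCI and 0.103, 0.165, 0.139 and 0.419 CPM in sham, and it rose by 3.27 (SE 0.44, adjusted p 5.91e-05). Ccl3 and Ccl4 were even across the CCI libraries. Ccl5, which T cells make in quantity and which binds Ccr1 and Ccr3, measured 5.20, 3.28, 8.02 and 3.44 CPM in CCI and 0.206, 0.0706, 0.0697 and 0.529 CPM in sham, a rise of 4.48 (SE 0.62, adjusted p 0.000128). Sham 4 held the highest sham level of both Ccl4 and Ccl5, and without it their log2 fold changes were 3.88 and 5.42.

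The log2 fold change of Ccr1 was 1.70, beside 2.31 to 8.22 for these ligands, and the difference was not tested. Ccr1 measured 25.5, 19.0, 25.2 and 21.9 CPM in CCI and 6.35, 6.83, 8.20 and 6.75 CPM in sham, a rise of 1.70 (SE 0.12, adjusted p 5.86e-07). The receptor did not overlap between groups and was even across the libraries of a group. Ccr1l1, a rodent gene like Ccr1, was not tested, with 101 counts in CCI and 1 in sham (ratio 83.6, 95% counting interval 14.7 to 3333), and it overlaps Ccr3 in GRCr8, so the reads of the 2 genes cannot be told apart with certainty.

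The interferon-induced ligands of Cxcr3, the receptor of activated T and NK cells, shared an order over the CCI libraries. Cxcl10 measured 14.1, 21.2, 28.5 and 5.75 CPM in CCI and 2.08, 2.07, 1.51 and 2.09 CPM in sham, a rise of 3.16 (SE 0.46, adjusted p 0.000312). Cxcl9 measured 9.55, 9.66, 14.6 and 7.03 CPM in CCI and 4.32, 1.15, 2.88 and 4.28 CPM in sham, a rise of 1.69 (SE 0.39, adjusted p 0.00384). Every CCI library lay above every sham library for both. Cxcl11, the least abundant by count, lay between 0.881 and 4.12 CPM in CCI and between 0.325 and 0.965 CPM in sham, so the groups overlapped. Its rise of 1.5 (SE 0.53, adjusted p 0.0276) rested on CCI 3, and without that library it was 0.74 (adjusted p 0.143). The call on Cxcl11 was also lost without sham 1 (adjusted p 0.0633) or sham 3 (0.0726), with the replicate number as a block (1.25, 0.103), and with limma-voom (0.0785), and its adjusted p over 19 alternatives ran from 0.00965 to 0.143.

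Cxcr3 measured 3.25, 3.19, 4.67 and 3.67 CPM in CCI and 0.0771, 0.0235, 0.116 and 0.441 CPM in sham, and rose by 4.44 (SE 0.60, adjusted p 8.72e-05; 5.62 without sham 4, its highest sham library). Cxcr3 and its 3 ligands were all highest in CCI 3, and the ligands were all lowest in CCI 4. The T and NK cell list summed to between 281 and 382 CPM in CCI and between 67.1 and 101 CPM in sham, and all 12 tested genes rose, led by Cd8b (0.076 ± 0.0643 to 9.55 ± 2.12 CPM). Of these 12 genes 8, Cd8b included, were not over the filter in all sham libraries, so their direction was nearly fixed by the filter, and 36.2% of all genes rose. That sum was 304 CPM in CCI 3 and highest in CCI 1 (382 CPM), so its order differed from that of the Cxcr3 genes. Most of that sum was Cd4 (250 ± 31.8 CPM in CCI), which rat macrophages also carry. By single gene, Nkg7, Prf1, Klrd1 and Ncr1 were highest in CCI 3, as Cxcr3 was. Cd2 was highest in CCI 2, and the other tested genes of the list in CCI 1. Cxcl11 and Cxcl10 lie side by side inside the span of Art3, which fell by 1.76 on the log2 scale, and the strand setting of the counting is not given.

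Both neighbours hold the NF-κB letters and are shown for that reason. In Cxcl10 (chr14:15988816-15989115, plus strand) they occur at 187 bases before the start (GGGAAATTCC) and again at 128 (GGGAACTTCCC), and in Cxcl11 (chr14:15973478-15973777, plus strand) at 74 (GGGAAATTCC). The same windows were searched for GAAANNGAAA, the core that interferon regulatory factors bind, which occurred in 2 of 44 member promoters (4.55%), Cxcl10 and Ccl19, and in 3.77% of all promoters. TTCNNNGAA, the core of STAT sites, occurred in 6 of 44 (13.6%), Ccl7, Ccl17, Ccl24, Ccr6, Cxcl9 and Cxcl11, and in 8.68% of all. None of the NF-κB runs overlapped a match to the other motifs.
Cxcl10: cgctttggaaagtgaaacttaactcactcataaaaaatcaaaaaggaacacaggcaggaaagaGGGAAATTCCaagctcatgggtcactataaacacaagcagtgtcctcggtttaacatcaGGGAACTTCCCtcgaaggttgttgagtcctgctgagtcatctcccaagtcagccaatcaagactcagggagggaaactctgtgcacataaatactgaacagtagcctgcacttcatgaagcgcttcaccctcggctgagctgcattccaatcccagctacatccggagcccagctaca
Cxcl11: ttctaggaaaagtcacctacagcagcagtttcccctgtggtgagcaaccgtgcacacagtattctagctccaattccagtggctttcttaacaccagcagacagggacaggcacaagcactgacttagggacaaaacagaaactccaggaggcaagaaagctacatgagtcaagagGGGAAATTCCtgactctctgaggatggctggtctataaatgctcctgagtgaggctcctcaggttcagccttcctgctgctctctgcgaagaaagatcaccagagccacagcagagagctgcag

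**Figure D2:**
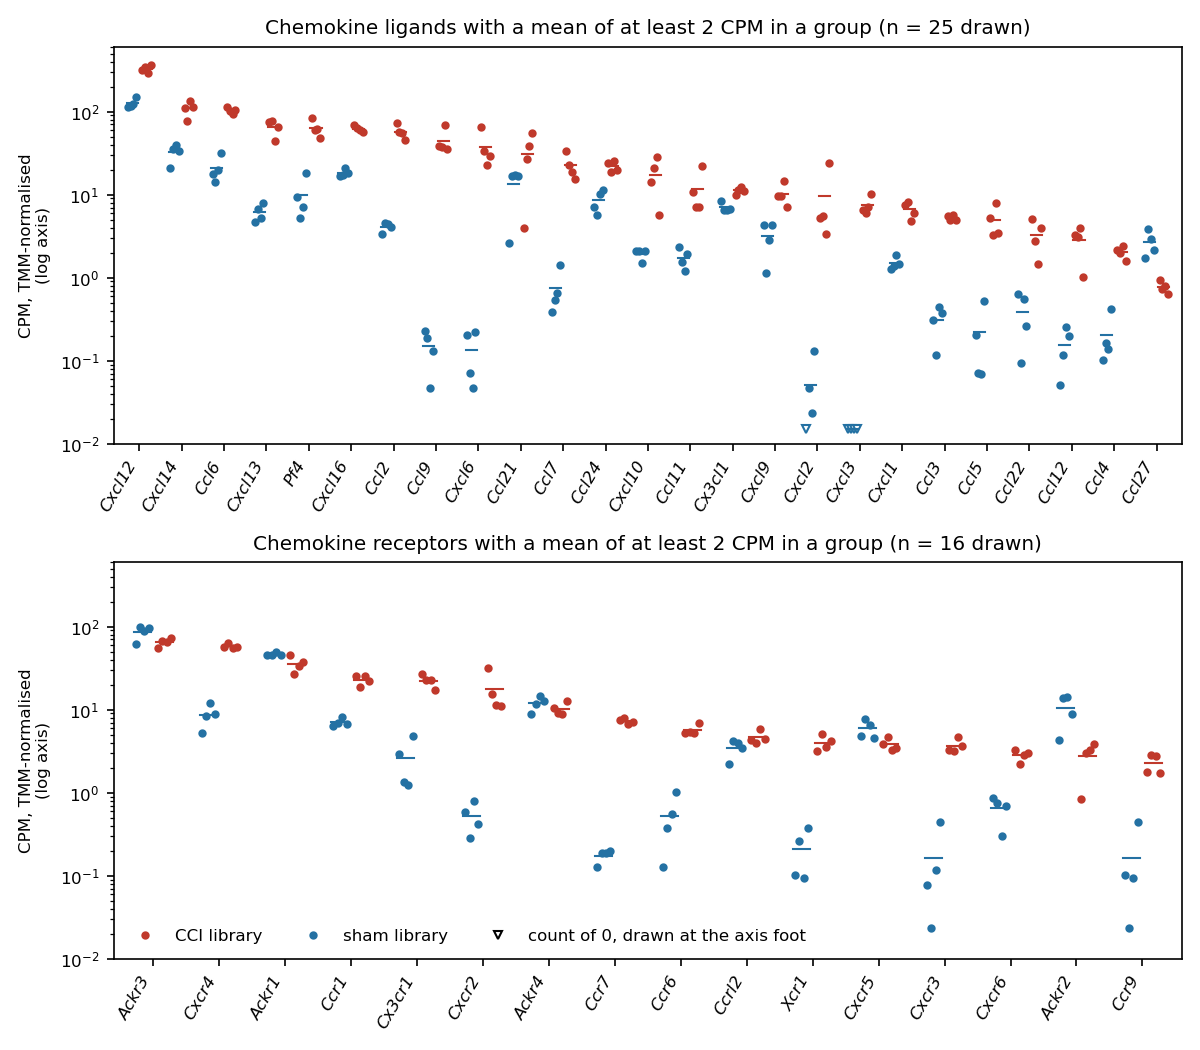
Level in each library (TMM CPM, log axis) of the ligands and receptors reported by name with a mean of at least 2 CPM in a group, with 1 point per library, short lines for group means and open triangles at the foot of the axis for a count of 0. Cxcl6 and Ccl9 pass from between 0.0465 and 0.231 CPM in sham to between 22.5 and 68.4 CPM in CCI, and Cxcl2 stands at 24.1 CPM in CCI 4 alone.

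The ligands of Ccr3, the receptor of eosinophils, also rose. Ccl11 (eotaxin) measured 10.9, 7.02, 7.08 and 22.0 CPM in CCI, with CCI 4 the highest, and 2.34, 1.53, 1.19 and 1.92 CPM in sham, a rise of 2.75 (SE 0.41, adjusted p 0.000278). Ccl24, a second eotaxin, measured 23.9, 18.7, 25.5 and 19.9 CPM in CCI and 7.19, 5.74, 10.3 and 11.5 CPM in sham, a rise of 1.34 (SE 0.21, adjusted p 0.000311). The third, Ccl26, had 2 counts in CCI and 1 in sham and was not tested. Ccr3 lay between 0.981 and 2.38 CPM in CCI and between 0.0697 and 0.308 CPM in sham, and rose by 3.01 (SE 0.48, adjusted p 0.000218). The mast cell and eosinophil list went the other way in sum, 109 to 151 CPM in CCI against 158 to 194 CPM in sham. Of its 7 tested genes 5 were lower, against 32.2% of all genes, led by the mast cell tryptase Tpsb2. The other 2 were higher, against 36.2%, led by Siglec5. The eosinophil granule genes Prg2 and Epx did not pass the filter. Their means were 0.0612 and 0.283 CPM in CCI and 0.0784 and 0.117 CPM in sham, so they made up little of the list's sum.

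Ligands and receptors of lymphocyte subsets and dendritic cells rose from low sham levels, with group means under 1 CPM. Ccl22, which binds Ccr4 on helper and regulatory T cells, measured 5.04, 2.79, 1.47 and 3.92 CPM in CCI and 0.642, 0.0942, 0.558 and 0.265 CPM in sham, a rise of 3.08 (SE 0.56, adjusted p 0.000654). Ccl17, the other ligand of Ccr4, lay between 0.645 and 2.20 CPM in CCI and between 0.0471 and 0.325 CPM in sham, and rose by 3.48 (SE 0.69, adjusted p 0.00105), or by 4.60 without sham 3. Ccr4 itself had 84 counts in CCI and 4 in sham, all in sham 4 (ratio 17.4, 95% counting interval 6.54 to 65.3, adjusted p 0.00161). The ligands differed in which library was highest, CCI 1 for Ccl22 and CCI 4 for Ccl17, although they flank Cx3cl1 in 1 run of genes.

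Ccr6, carried by subsets of T and B cells, measured 5.23, 5.39, 5.23 and 6.94 CPM in CCI and 0.128, 0.377, 0.558 and 1.01 CPM in sham, and rose by 3.44 (SE 0.46, adjusted p 8.14e-05). Its ligand Ccl20 had 189 counts in CCI and 6 in sham (ratio 26.1, 95% counting interval 11.8 to 71.9). The fitted rise of Ccl20 was 4.56 (SE 0.81, adjusted p 0.00047), or 3.91 without CCI 1 and 5.60 without sham 3. Ccl20 was thus scarce in all libraries, at most 1.80 CPM, beside a receptor that was steady in CCI. Ccr9, the receptor of Ccl25 on gut-homing lymphocytes, measured 1.76, 2.81, 2.77 and 1.74 CPM in CCI and 0.103, 0.0235, 0.0929 and 0.441 CPM in sham, and rose by 3.74 (SE 0.63, adjusted p 0.000354), or by 4.92 without sham 4. Ccl25 had 1 count in CCI and 2 in sham.

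Xcr1, the receptor of cross-presenting dendritic cells, measured 3.18, 5.05, 3.58 and 4.19 CPM in CCI and 0.103, 0.259, 0.0929 and 0.375 CPM in sham, a rise of 4.24 (SE 0.42, adjusted p 6.16e-06). Its ligand Xcl1, made by NK and CD8 T cells, lay between 0.482 and 0.725 CPM in CCI and between 0 and 0.221 CPM in sham, and rose by 3.24 (SE 0.85, adjusted p 0.00582), or by 5.87 without sham 4. The dendritic cell list, from which Ccr7 and Xcr1 were left out, summed to between 381 and 428 CPM in CCI and between 264 and 296 CPM in sham. Of its 7 genes 5 rose, against 36.2% of all genes, led by Cd83 (7.34 ± 1.08 to 25.2 ± 3.15 CPM), and Zbtb46 fell. Clec9a, which marks the same dendritic cells as Xcr1, measured 20.6 ± 2.94 CPM in CCI and 22.5 ± 5.61 CPM in sham (adjusted p 0.544). Batf3, another gene of this list, did rise, from 1.18 ± 0.21 to 6.53 ± 1.68 CPM (adjusted p 4.17e-06). The part of dendritic cells in the level of Xcr1 was not tested. Ccr8, found on regulatory T cells, was not tested and had 33 counts in CCI and 2 in sham (ratio 13.7, 95% counting interval 3.49 to 117).

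Ccr7, which guides dendritic cells and T cells into lymphatics, had the smallest adjusted p of the 51 tested members, while neither of its ligands was called. It was over the filter in 0 sham libraries and was tested through its level in CCI, so its direction was nearly fixed by the filter. Ccr7 measured 7.54, 7.85, 6.70 and 7.19 CPM in CCI and 0.128, 0.188, 0.186 and 0.198 CPM in sham, a rise of 5.36 on the log2 scale (SE 0.20, adjusted p 9.2e-09). Its ligand Ccl21, made by lymphatic endothelium, measured 3.99, 26.8, 38.9 and 55.3 CPM in CCI and 2.59, 16.6, 17.1 and 16.8 CPM in sham. CCI 1 and sham 1 were both far below the other libraries of their group, the groups overlapped, and the log2 fold change was 1.23 (SE 0.87, adjusted p 0.247). Without CCI 1 and sham 1, a choice made after these values were seen, it was 1.22 with an adjusted p of 0.00478, and with the replicate number as a block 1.08 with 0.00233. The adjusted p of Ccl21 over 20 alternatives ran from 0.00233 to 0.498. Ccl19, the other ligand, lay between 0.209 and 0.776 CPM in CCI and between 0.163 and 0.447 CPM in sham (0.38, SE 0.53, adjusted p 0.536).

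Prox1, the transcription factor that defines lymphatic endothelium, measured 1.5, 6.09, 6.76 and 11.7 CPM in CCI and 2.21, 9.56, 10.6 and 10.6 CPM in sham, so it too was lowest in CCI 1 and sham 1. Lyve1, which macrophages also carry, did not show this low value in CCI 1, with 63.0, 58.2, 62.3 and 72.6 CPM in CCI and 41.2, 63.8, 88.6 and 55.1 CPM in sham. The lymphatic list of 4 genes summed to between 158 and 186 CPM in CCI and between 69.7 and 145 CPM in sham. Of the 4 genes 2 were higher, against 36.2% of all genes, led by Pdpn (23.3 ± 3.10 to 68.7 ± 3.88 CPM), which other cells also express. Flt4 of this list measured 28.6, 29.4, 24.5 and 29.8 CPM in CCI and 7.48, 20.2, 19.7 and 19.8 CPM in sham. Like Lyve1, Flt4 and Pdpn were lowest in sham 1 but not in CCI 1. Only Prox1 of the 4 genes was lowest in both CCI 1 and sham 1. The part of lymphatic tissue in the level of Ccl21 was not tested. Ccl21 is known to have near-identical copies in the mouse genome, so its count is uncertain here.

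**Figure D3:**
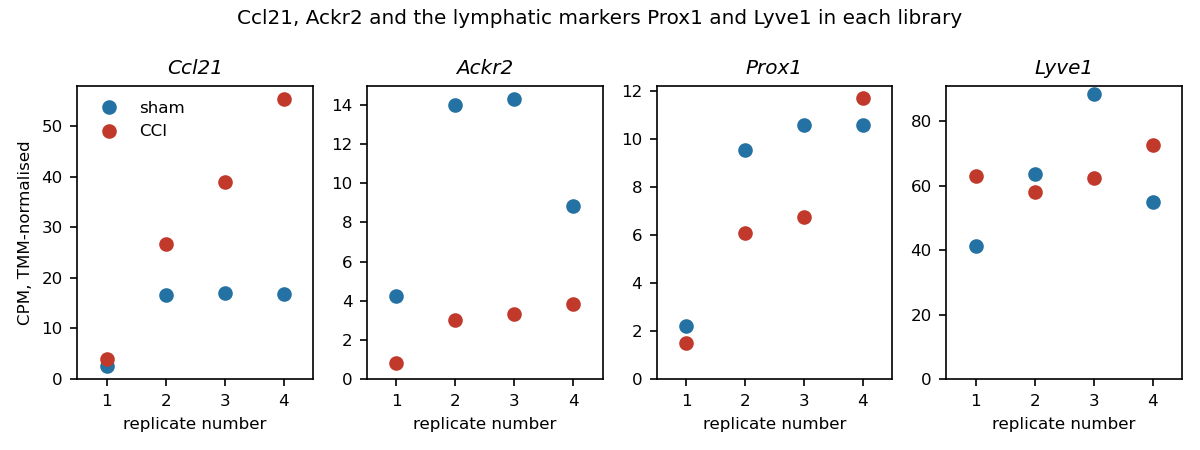
Level (TMM CPM) of Ccl21, Ackr2, Prox1 and Lyve1 in each library, plotted against the replicate number, which has no order and serves only to name a library. Ccl21, Prox1 and Ackr2 are lowest in CCI 1 and in sham 1 of their groups, and Lyve1 is low in sham 1 but not in CCI 1.

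Cxcl12 and its receptor Cxcr4, a homeostatic pair that holds and guides stem cells and leukocytes, both rose. Cxcl12 measured 313, 340, 291 and 362 CPM in CCI and 114, 118, 125 and 150 CPM in sham, a rise of 1.37 (SE 0.10, adjusted p 6.7e-07). Cxcr4 measured 57.4, 63.6, 55.9 and 56.7 CPM in CCI and 5.24, 8.38, 12.0 and 8.98 CPM in sham, a rise of 2.75 (SE 0.21, adjusted p 2.84e-06). Both were far apart between groups and even within CCI. Ackr3, the atypical receptor that takes up Cxcl12 and Cxcl11, measured 55.3, 66.7, 65.3 and 72.1 CPM in CCI and 61.5, 99.6, 89.5 and 95.2 CPM in sham, so sham 1 fell within the CCI range. It fell by 0.41 on the log2 scale (SE 0.15, adjusted p 0.0292). The direction held but the threshold was missed without CCI 1 (-0.38, adjusted p 0.0581), sham 2 (-0.34, 0.0761), sham 3 (-0.40, 0.064), sham 4 (-0.37, 0.0739), or CCI 2 and sham 2 together (-0.35, 0.106). Scaled by library totals only, Ackr3 was at -0.19 (adjusted p 0.294), where the median of all genes stood at 0.27 instead of 0.05. The adjusted p of Ackr3 over 20 alternatives ran from 0.000312 to 0.351.

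Cxcl13, the B cell attractant of lymphoid follicles, and its receptor Cxcr5 moved in opposite directions with TMM scaling, the receptor weakly. Cxcl13 measured 74.8, 77.7, 44.2 and 65.7 CPM in CCI and 4.70, 6.80, 5.23 and 8.03 CPM in sham, a rise of 3.40 (SE 0.23, adjusted p 1.32e-06). Cxcr5 measured 3.83, 4.74, 3.26 and 3.48 CPM in CCI and 4.80, 7.79, 6.60 and 4.56 CPM in sham, with CCI 2 above sham 4, and fell by 0.63 (SE 0.21, adjusted p 0.0193). It kept its direction but missed the threshold without sham 2 (-0.47, adjusted p 0.0645), without sham 3 (-0.58, 0.0528) and with library totals (-0.41, adjusted p 0.101), and its adjusted p over 19 alternatives ran from 0.00519 to 0.118. Cxcr5 overlaps Bcl9l in GRCr8, a gene at 141 ± 5.72 CPM in CCI and 151 ± 15.2 CPM in sham (-0.09, adjusted p 0.295), so some reads given to Cxcr5 may belong to it. The B cell list summed to between 5.71 and 7.82 CPM in CCI and between 0.418 and 1.48 CPM in sham. Of its 5 tested genes 2 rose, against 36.2% of all genes, led by Fcrla (0.239 ± 0.136 to 3.54 ± 0.344 CPM). None of the 5 was over the filter in all sham libraries. The B cell gene Cd79a was not called, and Ms4a1 and Pax5 did not pass the filter.

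Cxcl14, a constitutive chemokine of skin and stroma, measured 112, 78.0, 135 and 114 CPM in CCI and 21.0, 35.5, 39.4 and 33.7 CPM in sham, a rise of 1.76 (SE 0.22, adjusted p 0.00013). Cxcl16, a transmembrane ligand shed from macrophages, measured 68.3, 63.5, 60.3 and 57.6 CPM in CCI and 17, 17.1, 20.8 and 18.0 CPM in sham, a rise of 1.78 (SE 0.09, adjusted p 3.7e-08). Its receptor Cxcr6, on T and NK cells, measured 3.30, 2.20, 2.88 and 2.98 CPM in CCI and 0.874, 0.753, 0.302 and 0.684 CPM in sham, a rise of 2.12 (SE 0.33, adjusted p 0.000188). None of these 3 overlapped between groups. In GRCr8 Cxcl16 overlaps Zmynd15, and Cxcr6 overlaps Fyco1 (88.3 ± 2.24 to 76.6 ± 7.20 CPM), a gene far above it in count.

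Cx3cl1 (fractalkine), the second transmembrane ligand and known from neurons and endothelium, had the smallest rise of any called ligand. It measured 9.98, 11.5, 12.4 and 11.1 CPM in CCI and 8.48, 6.47, 6.58 and 6.79 CPM in sham, a rise of 0.67 (SE 0.12, adjusted p 0.000691). Its receptor Cx3cr1, a macrophage and microglial gene, measured 27.1, 22.6, 22.5 and 17.3 CPM in CCI and 2.90, 1.34, 1.25 and 4.87 CPM in sham, a rise of 3.10 (SE 0.44, adjusted p 0.000273). The groups did not overlap for ligand or receptor.

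Pf4 (platelet factor 4, also made by macrophages) measured 83.9, 60.5, 61.2 and 48.1 CPM in CCI and 9.43, 5.18, 7.16 and 18.1 CPM in sham, a rise of 2.67 (SE 0.40, adjusted p 0.000628). Ppbp, the other classical platelet chemokine and the next gene, was not tested and had 34 counts in CCI and 6 in sham (ratio 4.69, 95% counting interval 1.95 to 13.7). The platelet and megakaryocyte list summed to between 50.3 and 63.7 CPM in CCI and between 40.7 and 59.4 CPM in sham. Of its 9 tested genes 2 rose, against 36.2% of all genes, and 4 fell, against 32.2%. The 2 were Itgb3 (18.0 ± 2.71 to 37.6 ± 4.82 CPM) and Gp6 (1.38 ± 1.08 to 8.31 ± 0.659 CPM). Among those that fell was Gp1ba (3.71 ± 0.42 to 1.61 ± 0.492 CPM), and Gp1bb had no count in any library. The platelet sum, most of it Itgb3 in CCI, overlapped between groups, and the part of platelets in the level of Pf4 was not tested.

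No atypical receptor was called higher with TMM scaling, and Ccrl2 was with library totals or FPKM. Ackr2, which degrades inflammatory CC ligands and is known from lymphatic endothelium, measured 0.846, 3.04, 3.31 and 3.82 CPM in CCI and 4.26, 14.0, 14.3 and 8.86 CPM in sham, without overlap. It fell by 1.92 on the log2 scale (SE 0.51, adjusted p 0.00973), and like Ccl21 and Prox1 it was lowest in CCI 1 and sham 1. Without CCI 2 and sham 2, which held the most muscle RNA, it was at -1.79 with an adjusted p of 0.0521, and over 19 alternatives the adjusted p ran from 7.88e-05 to 0.0521. Ackr1, which carries chemokines across venules and sits on red cells, measured 45.3, 26.9, 33.8 and 37.8 CPM in CCI and 45.4, 45.8, 49.1 and 45.7 CPM in sham. CCI 1 lay just below the lowest sham library, and Ackr1 fell by 0.37 (SE 0.13, adjusted p 0.0297).

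The call of Ackr1 was lost under more alternatives than that of any other member. Its log2 fold change moved little without CCI 3 or 1 sham library. Over all 20 alternatives it ran from -0.55 to -0.15. Ackr1 was not called without CCI 3 (-0.37, adjusted p 0.0644), without each sham library in turn (-0.39 to -0.35, 0.0501 to 0.0736), without CCI 2 and sham 2 (-0.26, 0.0721) and with library totals only (-0.15, 0.329). Over 20 alternatives its adjusted p ran from 0.00194 to 0.329. The endothelial list summed to between 1369 and 1544 CPM in CCI and between 871 and 942 CPM in sham. Of its 10 genes 8 were higher, against 36.2% of all genes, led by Tie1 (51.7 ± 3.58 to 228 ± 13.6 CPM), and Cldn5 was lower. The erythroid list ranged from 595 to 2037 CPM in CCI and from 720 to 5292 CPM in sham. None of its 5 genes was called by edgeR, against 68.4% of all genes. The part of either cell type in the level of Ackr1 was not tested.

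Ackr4, a scavenger of Ccl19, Ccl21 and Ccl25, measured 10.4, 9.16, 8.75 and 12.7 CPM in CCI and 8.76, 11.7, 14.8 and 12.8 CPM in sham (-0.23, SE 0.17, adjusted p 0.249), and it overlaps Acad11. Ccrl2, which presents chemerin, measured 4.35, 3.93, 5.91 and 4.47 CPM in CCI and 2.24, 4.21, 3.97 and 3.48 CPM in sham (0.42, SE 0.22, adjusted p 0.115). It was called higher when scaled by library totals only (0.65, adjusted p 0.0267, range over 19 alternatives 0.0177 to 0.355). Both sets of values overlapped between groups.

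The remaining members were a skin-type axis and scarce genes. Ccl27, the keratinocyte ligand of Ccr10, was the only ligand called lower and measured 0.932, 0.721, 0.789 and 0.629 CPM in CCI and 1.72, 3.88, 2.93 and 2.18 CPM in sham. It fell by 1.80 on the log2 scale (SE 0.30, adjusted p 0.000348), without overlap. Ccl27 shares its span with Il11ra1, which fell by 1.02 (44.7 ± 4.58 to 22.0 ± 0.268 CPM), and the reads of both genes cannot be told apart without strand. Ccr10 lay between 0.315 and 0.740 CPM in CCI and between 0.353 and 1.18 CPM in sham (-0.34, SE 0.46, adjusted p 0.524), and it overlaps Cntnap1. Cxcl17, a mucosal chemokine, lay between 0.276 and 0.789 CPM in CCI and between 0.565 and 1.21 CPM in sham (-0.61, SE 0.41, adjusted p 0.206). Ccl28, the other ligand of Ccr10, had 2 counts in CCI and 15 in sham and was not tested. These 4 genes had no value above 4 CPM in any library.

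Pairing each ligand with its known receptors gave 46 pairs, with both sides tested in 34. Pairs share genes and libraries, so their counts are a description. Both sides were higher in 26 pairs, all with conventional receptors. That count follows largely from the single calls, with 27 of 31 tested ligands and 13 of 15 tested conventional receptors higher. Over all genes 36.2% were higher. Of the tested members, 13 ligands and 7 receptors were not over the filter in all sham libraries and were tested through their level in CCI. In 3 pairs the ligand was higher and the receptor lower, namely Cxcl13 with Cxcr5 and both Cxcl11 and Cxcl12 with Ackr3. In the other 5 the ligand was not higher, namely Ccl19 and Ccl21 with Ccr7 and Ackr4, and Ccl27 with Ccr10. Within the axes, the log2 fold change was larger for the ligand than for the receptor with Ccl9 and Ccr1 (8.22 and 1.70), and larger for the receptor with Cx3cl1 and Cx3cr1 (0.67 and 3.10).

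**Figure D4:**
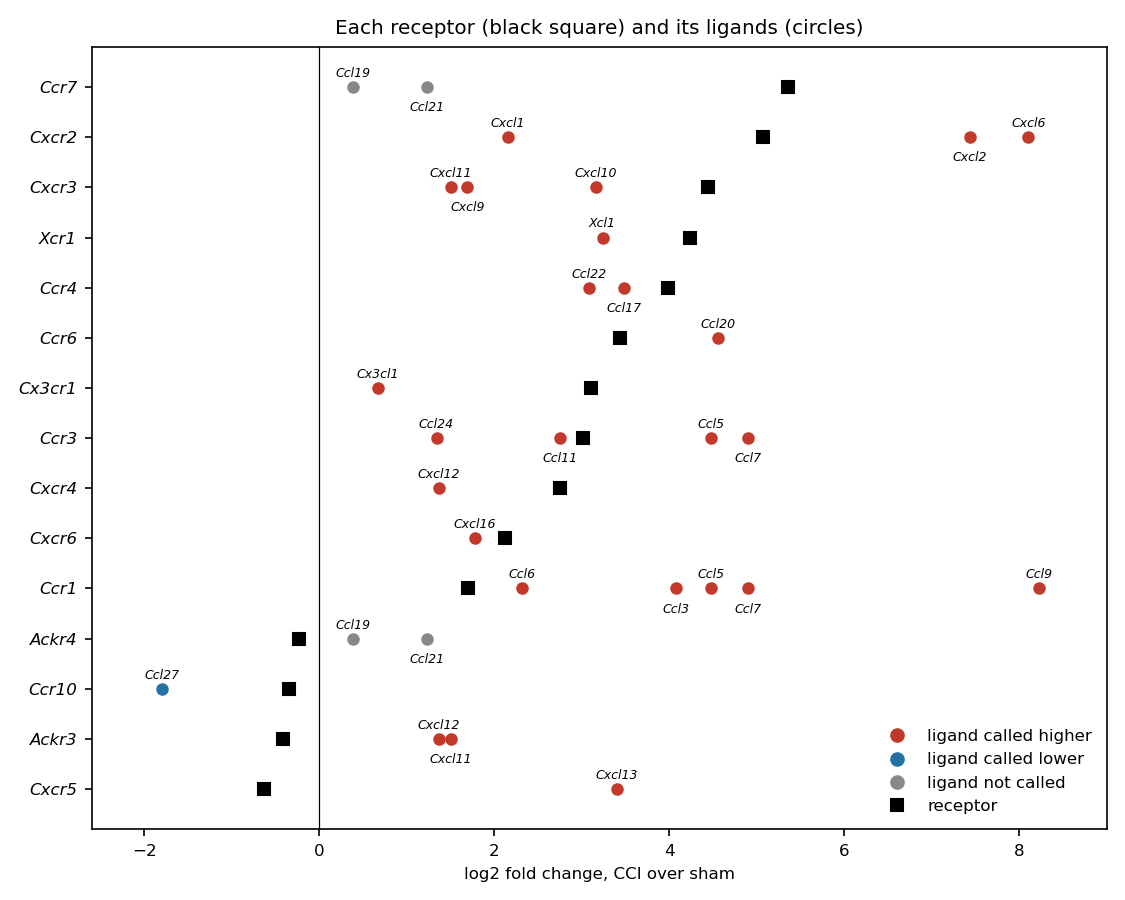
Log2 fold change (CCI against sham) of receptors beside those of their tested ligands, 1 row per receptor, squares for receptors and circles coloured by call for ligands, with Cxcl3 left out of the Cxcr2 row because it had no sham counts. Ligand and receptor points lie right of 0 in most rows, while the receptors Ackr3, Ackr4 and Cxcr5 lie left of 0 beside ligands on the right, and Ccr10 and Ccl27 both lie left.

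Levels of different genes were compared per length, with the deposited FPKM (fragments per kilobase of gene, scaled to the library total). The summed ligand FPKM was 1090 ± 67.2 in CCI and 177 ± 48.1 in sham (SD, n = 4). In sham Ccl6 made up 30.7% of that sum, Pf4 15.7%, Cxcl14 10.8% and Cxcl12 9.79%. In CCI Ccl6 (29.4%) and Pf4 (19.6%) still led, followed by Ccl2, whose share was 7.28% against 2.88% in sham. Ccl9 went from 0.0635% and rank 27 of the ligands to 3.31% and rank 9. Cxcl12 held 4.70% of the FPKM sum in CCI but 31.2% of the ligand counts, because the length behind its FPKM was 6.92 kb, against 0.348 kb for Ccl6. So the order of the ligands depends on the length correction, and the changes of a single ligand do not.

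**Figure D5:**
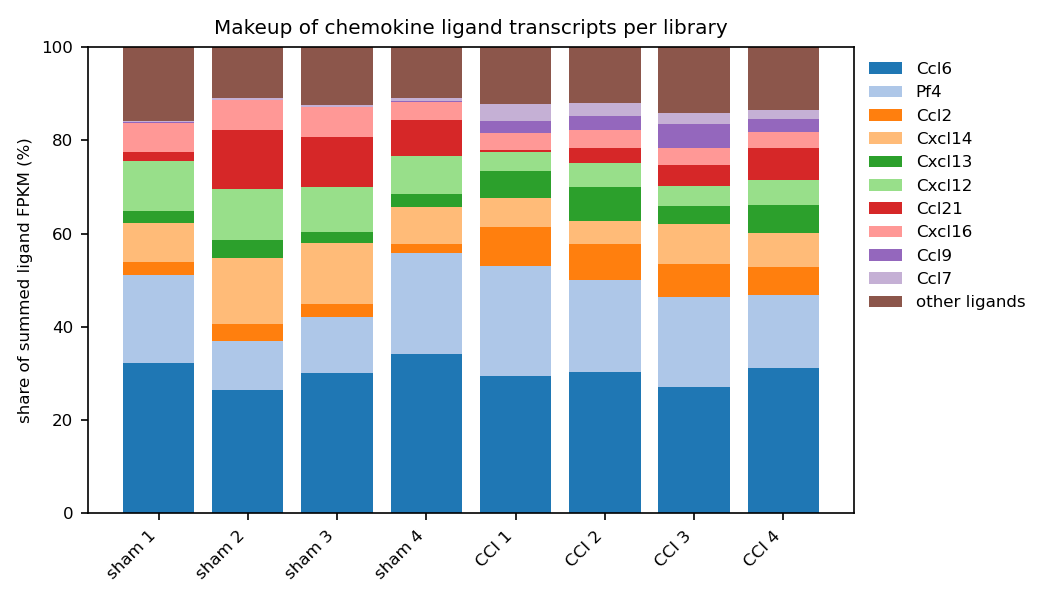
Share of the summed ligand FPKM (percent) held in each library by the 10 ligands with the largest mean share in CCI, stacked to 100 with all other ligands on top. Ccl6 and Pf4 hold the largest mean shares in both groups, the share of Cxcl12 is 4.70% in CCI and 9.79% in sham, and that of Ccl9 is 3.31% and 0.0635%.

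The libraries did not move together across the members. Of the 40 members called higher, 15 were highest in CCI 1, 13 in CCI 3 and 6 each in CCI 2 and CCI 4, and 16 were lowest in CCI 4. CCI 1 led Ccl2, Ccl7, Cxcl6, Cxcr2 and Pf4, and CCI 3 led Cxcl9, Cxcl10, Cxcr3, Ccl5 and Ccl9. These counts describe the 4 libraries and carry no test.

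Genes of the chemokine signal inside the cell rose for the most part, and the G protein subunits moved both ways. Of 32 tested signalling genes 23 were higher and 5 lower (Gnai1, Gng2, Gnb1, Grk5 and Elmo1), with a median log2 fold change of 1.41 against 0.05 over all genes, of which 36.2% were higher and 32.2% lower. Vav1, an exchange factor of haematopoietic cells, rose from 5.61 ± 0.957 to 57.1 ± 4.39 CPM (adjusted p 7.83e-09), and Plcb2, the phospholipase of leukocyte chemokine signals, from 4.83 ± 0.312 to 25.9 ± 1.89 CPM (adjusted p 9.45e-09). Gng2, a G protein gamma subunit, fell from 439 ± 34.7 to 98.7 ± 10.4 CPM (adjusted p 1.59e-08), and Gnai1, an inhibitory alpha subunit, from 98.9 ± 5.38 to 26.5 ± 3.65 CPM (adjusted p 4.94e-08). The subunit genes Gnai2 (447 ± 14.9 to 569 ± 35.5 CPM, adjusted p 0.000857) and Gnb2 (78.9 ± 6.21 to 179 ± 15.7 CPM, adjusted p 3.63e-07) rose, and Gnai3 was not called. With library totals only, 3 of the list were lower. Proteases that cleave or shed chemokines were 7 higher and 3 lower of 10 tested (median 0.95), against 36.2% higher and 32.2% lower over all genes, and 4 of the 10 were not over the filter in all sham libraries. Mmp9, which trims several CXC ligands, rose from 0.206 ± 0.121 to 94.4 ± 18.8 CPM (adjusted p 2.06e-08), and Adam17, a sheddase of Cx3cl1, from 67.3 ± 5.22 to 137 ± 12.5 CPM (adjusted p 1.21e-06). Adam10, which sheds Cx3cl1 and Cxcl16, fell from 276 ± 32.2 to 184 ± 6.65 CPM (adjusted p 0.000128), and Dpp4, which truncates Cxcl12 and Cxcl10, from 98.6 ± 3.00 to 46.8 ± 12.4 CPM (adjusted p 0.000297). Mme fell too, and Ctsg and Prtn3 did not pass the filter.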

How the data were processed

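PolyA RNA of rat sciatic nerve was extracted with a column kit and made into libraries with a SMARTER mRNA-Seq kit, per the labels' protocols. The authors deposited raw counts per gene and FPKM values. The submitters' processing notes name fastp, HISAT2, HTSeq, R 3.2.0 and DESeq2, without roles, and the build Rnor_6.0; these sources give no annotation, strand setting or filter.

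CCI was compared with sham on the deposited counts in edgeR 4.0.16 under R 4.3.3 (robust quasi-likelihood F test, filterByExpr, TMM). The code was also run on simulated counts. Far fewer genes changed in those than in these data, so that run cannot vouch for the scaling or the calls here. P-values were adjusted by Benjamini-Hochberg over all 15763 tested genes and called under 0.05. SE is approximate, the log2 fold change over the root of F. The deposited FPKM served for comparisons between genes and for the limma alternatives on log2(FPKM + 1) or + 0.1. Totals per library were 42541217 to 54559292, and library pairs within a group differed by 27.5 to 74.5 chi-square per degree of freedom, so none was counted once. Members, lists and ligand-receptor pairs were chosen with earlier results of these data known. Values per library are given for tested members with a mean of at least 2 CPM in either group, and from other lists the called genes with the smallest p; any further gene was picked with its values known. Alternatives were other scalings, filters, DESeq2 1.42.0, limma 3.58.1 (voom, and log2(FPKM + 1) or + 0.1), a replicate block, a minimum fold and leaving out libraries. Promoters and gene neighbours came from RefSeq tables of GRCr8, a build other than that of the counts, and the 15 members without a promoter entry included Ackr1, Ccl2, Ccl3, Ccl4, Ccl5, Ccl11, Ccr4, Ccr7, Ccr8, Ccr9, Ccr10, Cxcl3, Cxcr5 and Pf4. A few genes are counted in the totals but not reported here by name.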

Additional observations from a re-analysis of the deposited data

Results flagged for a closer look

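In 102 groups of 4 libraries, 1 library's CPM stood apart from the other 3 by Dixon's test at its 95% critical value in 11; chance gives about 1 in 20 groups. In CCI these were Cxcl2 in CCI 4 (24.1 CPM, the others 3.35 to 5.60), Ccl9 in CCI 3 (68.4, the others 35.3 to 38.2), Cxcl11 in CCI 3 (4.12, the others 0.881 to 1.35) and Ccr6 in CCI 4 (6.94, the others 5.23 to 5.39). In sham the high ones were Ackr1 in sham 3 (49.1, the others 45.4 to 45.8), Cx3cl1 in sham 1 (8.48, the others 6.47 to 6.79), Ccl17 in sham 3 (0.325, the others 0.0471 to 0.0662), Ccr4 in sham 4 (0.0882, the others 0) and Xcl1 in sham 4 (0.221, the others 0 to 0.0232). The low ones were Ccl21 in sham 1 (2.59, the others 16.6 to 17.1) and Cxcl10 in sham 3 (1.51, the others 2.07 to 2.09). Ccl17, Ccr4 and Xcl1 rest there on a few counts.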

How the results depend on the processing

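Of the 51 tested members 40 kept their direction and their call under all of up to 20 alternatives each. Calls of Ackr1, Ackr2, Ackr3, Cxcr5, Cxcl2 and Cxcl11 were lost, and calls of Ccl21 and Ccrl2 gained, as given beside each. The counts of ligands higher (27), cleaving genes higher (7) and lower (3) stayed within 1.5 times throughout. Receptors lower (4) were 1 with library totals, with either FPKM setting, without CCI 2 and sham 2 or with a log2 fold change of at least 1, 2 with at least 5 CPM, and 1 to 4 when 1 library was left out; receptors higher were 7 with at least 5 CPM. Ligands lower (1) were 2 with no filter and 0 with at least 5 CPM, where Ccl27 was not tested. Signalling genes lower (5) were 3 with library totals, either FPKM setting or a log2 fold change of at least 1. That minimum left 2587 genes higher and 2187 lower. The ligand median (3.08) was 2.69 with no filter, 2.61 with at least 5 CPM, 2.72 by DESeq2 and 1.94 on log2(FPKM + 1); the receptor median (2.88) was 0.71 on log2(FPKM + 1) and 2.06 with + 0.1. The pseudocount shrinks low genes. Uncalled values that changed sign were Ackr4 (0 on both FPKM settings), Ccl19 (-0.16 without CCI 4, to 0.62 over single libraries left out) and Ccr10 (0.12 without sham 1, to -0.6, and 0.10 without CCI 1 and sham 1); the cause was not tested. The replicate numbers were not taken to pair libraries: deviations of equal numbers correlated at 0.121, 0.293, -0.0241 and 0.0271. With the block, 5586 genes were higher and 4919 lower, Ccl21 gained its call and Cxcl11 lost it. Depth limits members under about 0.217 CPM.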
